A study of Mus musculus with 8 samples.

Results

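The genes described here encode the respiratory chain and the ATP synthase of mitochondria. They were chosen by name from the annotated expression table: every gene whose single symbol begins with Nduf, Uqcr, Atp5 or Cox followed by a digit, together with Sdha, Sdhb, Sdhc and Sdhd. The rule found 97 genes among 21626 named genes, each read from the probe set that was brightest on average over the 8 arrays. Of these 97, 74 encode ubiquitous nuclear-encoded subunits, 8 encode tissue-restricted isoforms or paralogues of complex IV subunits, and 14 encode assembly, coupling or supercomplex factors. The remaining gene, Cox4nb (now Emc8), is named for its position beside a cytochrome oxidase gene and encodes no respiratory protein. Total RNA of mouse stomach was measured on Affymetrix arrays: 4 arrays hold gastric adenocarcinoma and 4 hold normal gastric mucosa. The tumours were fresh frozen primary cancers that arose spontaneously in transgenic mice. The labels name neither the transgene nor its promoter, give no strain, age or sex, do not say whether the normal mucosa carried the transgene, and do not say whether the samples came from separate animals. A p-value here can only speak of the scatter among these 8 samples, and some of that scatter may be technical.

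Oxidative phosphorylation passes electrons from NADH (complex I) or succinate (complex II) through coenzyme Q to complex III, and from there through cytochrome c to complex IV, where oxygen is reduced. Complexes I, III and IV pump protons across the inner membrane, and complex V, the ATP synthase, uses the return flow of protons to make ATP. Most subunits are encoded in the nucleus and a few in mitochondrial DNA. In the stomach, the acid-secreting parietal cell is among the cells richest in mitochondria, because its proton pump consumes ATP.

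Expression is given on the log2 scale made with RMA (robust multi-array average), and a change is the adenocarcinoma mean minus the normal mean, with the standard error of a limma fit across all genes. A gene was called lower or higher where limma's Benjamini-Hochberg adjusted p over all genes was under 0.05. Levels of different probe sets are not on a common per-molecule scale, so only changes and within-gene levels are compared. The median gene was at 8.4 to 8.45 in the adenocarcinomas and at 8.2 to 8.3 in normal mucosa. Background probes had medians of 6.0 to 6.2 in the adenocarcinomas and 6.2 to 6.4 in normal mucosa. The gap between exon and intron control probes was 3.9 to 4.5 in the adenocarcinomas and 3.6 to 4.0 in normal mucosa. Only the gene median kept the groups apart, while the background medians met at 6.2 and the gaps overlapped. The part of these array measures in the results was not tested.

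Most of the respiratory genes were lower in the adenocarcinomas. Of the 97 genes, 72 were called lower, 1 was called higher and 24 were not called. Over all genes, 23.6% were called lower and 18.2% higher. All 4 adenocarcinomas lay below all 4 normal samples for 60 of the 97, against 18.5% of all genes. The median change was -0.50 over the 97 and -0.10 over all genes. Of the 74 ubiquitous subunits, 64 were called lower and 0 higher (limma; 65 and 0 at an unadjusted p under 0.05), with a median change of -0.58, a 1.49-fold lower level. The changes of the subunits ran from -1.20 to 0.15, and 73 of 74 were negative, against 13070 of 21626 over all genes. Because respiratory genes are bright, they were also read against genes with a mean log2 value of 10 or more: 21.8% of these were called lower, with a median change of 0.03, while 57 of the 69 respiratory genes in that range were called lower. The median change was negative at every brightness: it was -0.65 in the 5 subunits with a normal level under 10, -0.68 in the 31 subunits with a normal level of 10 to 12, -0.54 in the 30 at 12 to 13 and -0.43 in the 8 at 13 or above. Where arrays were instead centred on olfactory and vomeronasal receptor genes, which are read at a low level in both groups, 40 of the 97 were called lower against 7.86% of all genes, and 72 of 74 subunit changes were negative.

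**Figure D1:**
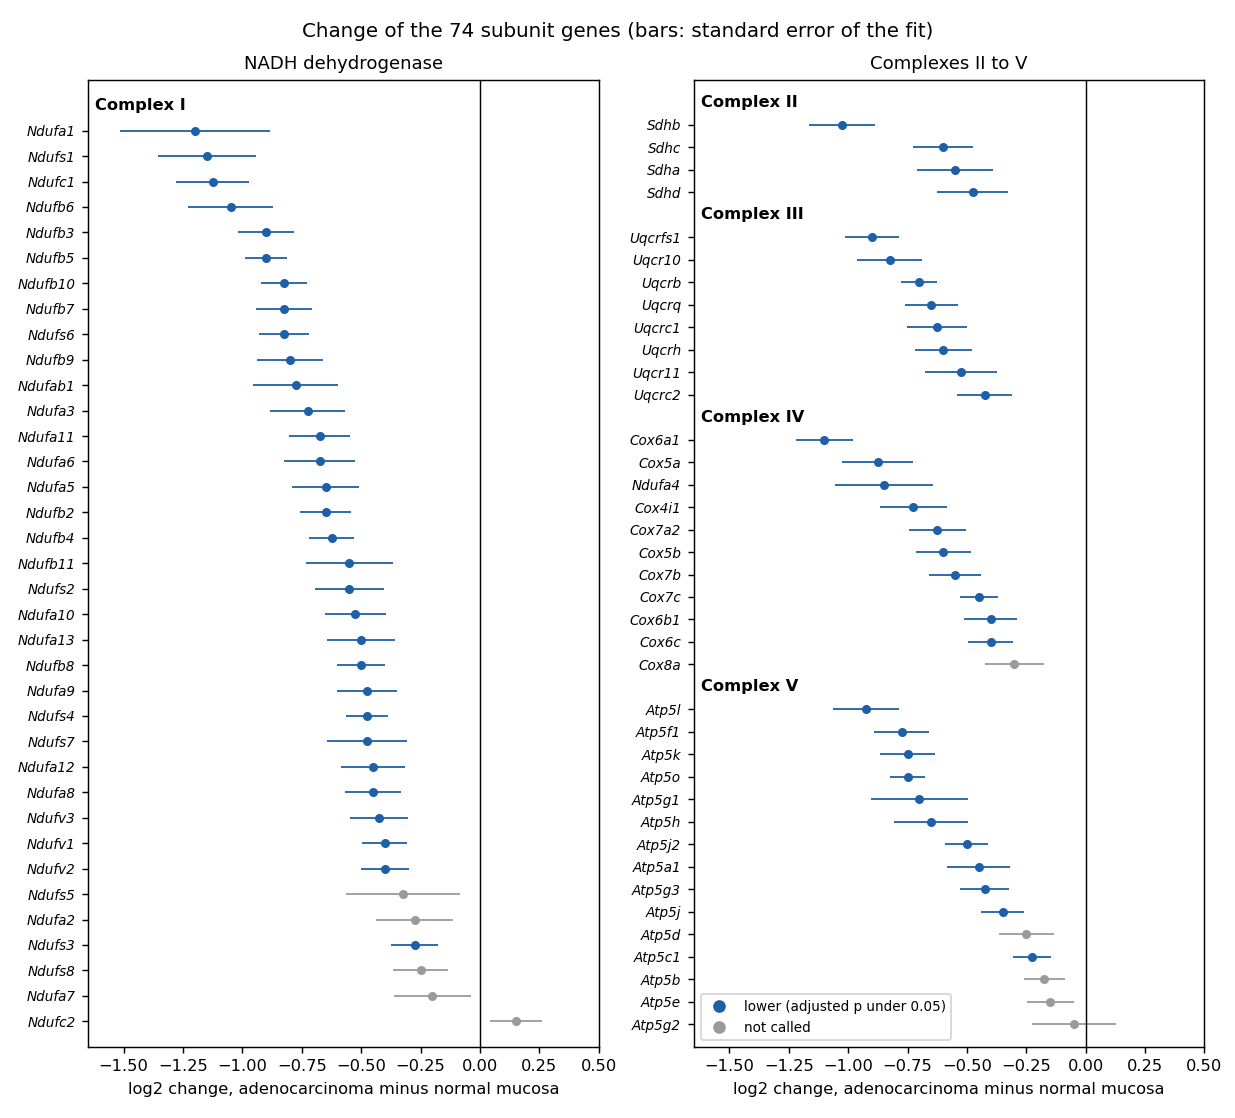
Each point is 1 of the 74 subunit genes, with its log2 change (adenocarcinoma minus normal mucosa, n = 4 each) on the x axis and the standard error of the limma fit as a bar; complex I is on the left and complexes II to V on the right. The changes run from -1.20 (Ndufa1) to 0.15 (Ndufc2), and grey points, which were not called, are found in complexes I, IV and V.

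Markers of the cell types of the stomach also separated the groups, and were read beside the respiratory genes. All 15 of 15 parietal cell markers were called lower, with a mean log2 level of 8.76 to 8.93 in the adenocarcinomas and 11.5 to 11.7 in normal mucosa. Atp4b, the beta subunit of the proton pump, changed by -5.88 and the potassium channel gene Kcnj16 by -5.45. Chief cell markers were called lower in 6 of 7 cases, led by Chia (-6.03) and Pdia2 (-5.70). Lipf, among these 6, lay at or below the median of the background probes on all 8 arrays, and the marker not called, Cym, was at 0.75, with 12.7 in adenocarcinoma 1. Surface pit cell markers were called lower in 5 of 6, led by Muc5ac (-4.80) and Psca (-4.45). The mean level of the chief cell list was 7.91 to 8.41 in the adenocarcinomas and 10.6 to 11.1 in normal mucosa, and that of the pit cell list was 10 to 12.7 in the adenocarcinomas and 13.9 to 14 in normal mucosa. Stromal and immune markers were called higher: 7 of 7 for fibroblasts (Dcn 4.48, and Lum at least 20.4-fold), 6 of 6 for endothelium (Emcn 4.08, Cdh5 3.93), 8 of 8 for macrophages (Lyz2 4.33, C1qb 3.80), 6 of 7 for smooth muscle (Acta2 3.83, Des 3.43) and 6 of 7 for pericytes and vascular smooth muscle (Rgs5 3.55, Pdgfrb 2.93). Their mean levels were 11.2 to 12.1 in the adenocarcinomas and 7.99 to 8.47 in normal mucosa for fibroblasts, and 10.8 to 11.3 in the adenocarcinomas and 7.69 to 7.91 in normal mucosa for macrophages. For endothelium they were 9.58 to 10.6 in the adenocarcinomas and 7.27 to 7.38 in normal mucosa, for smooth muscle 9.0 to 11.7 in the adenocarcinomas and 7.83 to 8.0 in normal mucosa, and for pericytes 9.16 to 10.1 in the adenocarcinomas and 7.47 to 7.69 in normal mucosa. In bulk tissue, fewer cells of a type and less RNA per cell cannot be told apart, and the part of these lists in the respiratory result was not tested. Sex-linked transcripts also separated the groups: Xist, transcribed from the inactive X chromosome, was at 6.2, 6.3, 6.5 and 6.6 in the adenocarcinomas, against 11.6, 12.4, 12.7 and 12.5 in normal mucosa, and all 4 Y-linked genes examined were called higher, Eif2s3y by at least 15.5-fold. Lum and Eif2s3y were at or below the median of the background probes on all 4 normal arrays, and their folds were taken against that median. The labels do not give the sex of the animals, so sex and tumour cannot be told apart, and the part of sex in the result was not tested. Without genes whose representative probe set lies on X or Y, 71 of 96 respiratory genes were called lower. This leaves out only Ndufa1 of the set, so it says nothing of a sex difference in genes on other chromosomes.

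Complex I, the NADH dehydrogenase, has a matrix arm that oxidises NADH and a membrane arm that pumps protons. Of its 36 subunits on the table, 31 were called lower and none higher, with a median change of -0.55, and the groups did not overlap for 25 of them. In the membrane arm, where Ndufab1 was counted although it sits in both arms, 18 of 20 were called lower with a median change of -0.70. In the matrix arm 13 of 16 were called lower with a median change of -0.46, and among its 7 core subunits 6 were called lower with a median of -0.40. The difference between the arms was not tested.

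Ndufs1, the large iron-sulphur subunit of the matrix arm, was at 10.4, 10.8, 9.8 and 10.3 in the adenocarcinomas, against 11.2, 11.8, 11.4 and 11.5 in normal mucosa. Every adenocarcinoma lay below every normal sample, and the change was -1.15 ± 0.21 (SE, limma adjusted p = 0.00288). The accessory membrane arm subunit Ndufc1 was at 10.1, 10.2, 10.3 and 10.8 in the adenocarcinomas and at 11.6, 11.5, 11.5 and 11.3 in normal mucosa, a change of -1.13 ± 0.15 (limma adjusted p = 0.000628), again with no overlap. Its partner in the same arm, Ndufc2, ran the other way: it was at 12.9, 12.8, 13.1 and 13 in the adenocarcinomas and at 12.8, 13, 12.6 and 12.8 in normal mucosa. The groups overlapped, and the change of 0.15 was not called (limma adjusted p = 0.284). Ndufb6, an accessory subunit of the membrane arm, was at 11.1, 11.7, 11.5 and 11.9 in the adenocarcinomas, against 12.3, 12.8, 12.6 and 12.7 in normal mucosa, a change of -1.05 ± 0.18 (limma adjusted p = 0.00208). The groups did not overlap at this probe set, but a dimmer probe set of Ndufb6 changed by -0.28.

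Ndufa1, a small subunit needed to assemble the membrane arm, had the largest change of complex I and is the only respiratory gene whose representative probe set lies on the X chromosome. It was at 8.4, 9.5, 8.7 and 9.9 in the adenocarcinomas and at 9.9, 10.6, 10.4 and 10.4 in normal mucosa, a change of -1.20 ± 0.31 (limma adjusted p = 0.0163). The highest adenocarcinoma equalled the lowest normal sample, so the groups touched, and adenocarcinomas 1 and 3 were the lowest. Cox7b and Ndufb11 also lie on X, but their brightest probe sets were cross-hybridising ones placed on other chromosomes, where both genes were called lower by 0.55. Their own unique probe sets on X gave changes of -0.60 for Cox7b and -0.45 for Ndufb11.

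The subunits of complex I that were not called besides Ndufc2 were Ndufs5 (-0.33, limma adjusted p = 0.289), Ndufa2 (-0.28, 0.193), Ndufs8 (-0.25, 0.104) and Ndufa7 (-0.20, 0.338). Ndufs5 was read differently by its probe sets: the representative one, unique to the gene, changed by -0.33 and a slightly dimmer cross-hybridising one by -1.10. With the mean of both it was called lower, by 0.71 (limma adjusted p = 0.0134). Of the 5 complex I assembly factors, Atp5sl (now Dmac2) and Ndufaf3 were called lower, by 0.48 and 0.45. Ndufaf1 (-0.43), Ndufaf4 (-0.40) and Ndufaf2 (-0.23) had negative changes and were not called.

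Complex II, succinate dehydrogenase, is also an enzyme of the citric acid cycle and is encoded entirely in the nucleus. All 4 of its subunits were called lower, with a median change of -0.58. Sdhb, the iron-sulphur subunit, was at 10.5, 11, 10.9 and 11.2 in the adenocarcinomas, against 11.9, 12, 11.9 and 11.9 in normal mucosa. Every adenocarcinoma lay at least 0.7 below the normal samples, and the change was -1.03 ± 0.14 (limma adjusted p = 0.000641). The membrane anchor Sdhc was at 11.2, 11.7, 11.3 and 11.4 in the adenocarcinomas and at 12, 12.2, 11.9 and 11.9 in normal mucosa, without overlap (-0.60 ± 0.13, limma adjusted p = 0.00615). Sdha, the flavoprotein that oxidises succinate, was at 11.9, 12.1, 11.4 and 11.5 in the adenocarcinomas, against 12.1, 12.4, 12.3 and 12.3 in normal mucosa (-0.55 ± 0.16, limma adjusted p = 0.0243). The other anchor, Sdhd, was at 11.2, 11.8, 11.1 and 11.3 in the adenocarcinomas, against 11.8, 11.9, 11.7 and 11.9 in normal mucosa (-0.48 ± 0.15, limma adjusted p = 0.0325). For both Sdha and Sdhd the groups met because adenocarcinoma 2 reached the normal range. The Sdhd change was not called when any 1 array other than adenocarcinoma 2 was left out (limma adjusted p = 0.0536 to 0.0826). The Sdha change was not called without adenocarcinoma 4 or without normal sample 2, 3 or 4 (limma adjusted p = 0.0501 to 0.0616). Under receptor gene centring the Sdha change (0.121), the Sdhc change (0.0574) and the Sdhd change (0.21) were not called either, by limma adjusted p.

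Complex III, the cytochrome bc1 complex, had 8 subunits found by the name rule. All 8 were called lower, with a median change of -0.64, and the groups did not overlap for 7. Uqcrfs1, the Rieske iron-sulphur protein that hands electrons on towards cytochrome c, was at 9.7, 9.9, 9.6 and 9.8 in the adenocarcinomas and at 10.5, 10.9, 10.6 and 10.6 in normal mucosa. The 2 groups lay well apart, with a change of -0.90 ± 0.11 (limma adjusted p = 0.000387). Uqcrb, a small subunit near the quinone site, was at 12.5, 12.5, 12.4 and 12.5 in the adenocarcinomas, against 13.2, 13.2, 13.2 and 13.1 in normal mucosa. Replicates were nearly equal within each group, and the change was -0.70 ± 0.08 (limma adjusted p = 0.000173). The small subunits Uqcr10 (-0.83 ± 0.14) and Uqcrq (-0.65 ± 0.11) followed. The core proteins Uqcrc1 and Uqcrc2 were called lower by 0.63 and 0.43.

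Complex IV, cytochrome c oxidase, had 10 of 11 ubiquitous nuclear-encoded subunits called lower, with a median change of -0.60, and none of these 10 overlapped between groups. Ndufa4, first described as a complex I protein and now placed in complex IV, was counted here. Cox6a1 was at 12, 11.7, 11.6 and 11.6 in the adenocarcinomas, against 12.7, 12.7, 13 and 12.9 in normal mucosa, the largest fall among these 11 (-1.10 ± 0.12, limma adjusted p = 0.00019). Cox5a, a matrix-side subunit, was at 10.7, 11.2, 10.7 and 11.2 in the adenocarcinomas and at 11.7, 12, 11.7 and 11.9 in normal mucosa (-0.88 ± 0.15, limma adjusted p = 0.00214). In both genes the highest adenocarcinoma lay at least 0.5 below the lowest normal sample. Ndufa4 (-0.85 ± 0.21, limma adjusted p = 0.0119) and Cox4i1 (-0.73 ± 0.14, limma adjusted p = 0.00434) came next. Cox8a, at 12.2, 12.4, 12.4 and 12.8 in the adenocarcinomas against 12.8, 12.8, 12.7 and 12.7 in normal mucosa, was not called (-0.30, limma adjusted p = 0.0815). Adenocarcinoma 4 was as high as the highest normal samples.

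Cox7a1 had by far the largest change of the set. Cox7a1 is the isoform of subunit VIIa typical of heart and skeletal muscle, and Cox7a2 is its ubiquitous counterpart. Cox7a1 was at 7.4, 7.7, 7.8 and 7.8 in the adenocarcinomas, against 11.7, 12, 11.9 and 11.7 in normal mucosa. The groups were separated by 3.9 log2 units, and the adenocarcinoma values lay just above the 95th percentile of the receptor genes on the same arrays (7.1 to 7.3). The change was -4.15 ± 0.12, a 17.8-fold lower level (limma adjusted p = 1.72e-07), and 27th in size among the falls of all genes. Cox7a2 was at 11.5, 11.8, 11.4 and 11.9 in the adenocarcinomas and at 12.3, 12.3, 12.2 and 12.3 in normal mucosa. It did not overlap either, but its change was -0.63 ± 0.12 (limma adjusted p = 0.00411).

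The promoters of this pair are shown because the isoforms sit in the same complex yet differed most in their change. They are taken from RefSeq on GRCm38.p6, from 250 bases before to 50 bases after each start, with CG dinucleotides in capitals. Cox7a1 is at chr7:30183921-30184220 on the plus strand and Cox7a2 at chr9:79759804-79760103 on the minus strand.
Cox7a1: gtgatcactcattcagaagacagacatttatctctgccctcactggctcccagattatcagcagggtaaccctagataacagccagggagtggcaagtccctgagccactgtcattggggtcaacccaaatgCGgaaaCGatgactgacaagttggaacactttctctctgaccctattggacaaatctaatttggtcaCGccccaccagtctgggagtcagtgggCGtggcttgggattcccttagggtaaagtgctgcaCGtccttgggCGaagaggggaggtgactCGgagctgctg
Cox7a2: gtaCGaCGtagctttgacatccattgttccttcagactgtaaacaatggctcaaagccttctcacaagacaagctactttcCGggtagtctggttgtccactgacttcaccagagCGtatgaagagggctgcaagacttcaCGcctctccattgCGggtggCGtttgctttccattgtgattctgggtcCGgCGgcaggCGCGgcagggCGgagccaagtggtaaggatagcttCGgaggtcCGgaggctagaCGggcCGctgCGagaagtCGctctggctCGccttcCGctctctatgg
The Cox7a1 window held 7 CG dinucleotides at 53.0% G and C, equal to the median of 7 over all 32851 promoters in the table. The Cox7a2 window held 20 at 56.7% G and C, near the median of 19.5 over the 68 promoters of the subunit genes. These counts describe the sequence only.

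Because Cox7a1 is a muscle isoform, markers of striated muscle were read beside it. Of 12 such markers 3 were called lower, near the 23.6% of all genes, with Myh7 at -0.40 and Myh6 at -0.38. The changes leaned lower, with 11 of 12 negative and a median of -0.26, against 13070 of 21626 negative and a median of -0.10 over all genes. The mean level of the list was 7.63 to 7.93 in the adenocarcinomas and 7.90 to 8.09 in normal mucosa. Smooth muscle markers were higher in the adenocarcinomas, as given above. Male germ cell markers were called lower in 2 of 8 (Tnp1 -0.30, Prm2 -0.25), also near the share of all genes. All 8 changes were negative, with a median of -0.21. Adipocyte markers had 1 of 7 called lower (Ucp1, -0.38) and a median change of -0.05. Among those not called, Cidec was at -0.85, Plin1 at -0.15 and Lep at -0.05. In the other direction, Cidea was at 0.60, Fabp4 at 0.58 and Adipoq at 0.53. Adipoq was at 8.7 in adenocarcinoma 2 and at 6.1 to 6.6 in the other adenocarcinomas. Pancreatic acinar markers had 1 of 7 called lower (Cela2a, -0.25) and a median change of 0.08. Among those not called, Ctrb1 was at 1.03, Cela1 at 0.63 and Cpa1 at 0.53. Amy2a5 (0.08), Pnlip (-0.03) and Prss2 (-0.08) were not called either. Adenocarcinoma 1 stood apart in the acinar list: its Ctrb1 level was 11.7, against 7.8 to 8.8 in the other adenocarcinomas and 7.9 to 8.2 in normal mucosa. The same array had the lowest value of 40 of the 74 subunits, and without it 57 of the 74 subunits were called lower. The adipocyte and acinar genes that were not called were named after their values were seen. The mean log2 level was 7.64 to 8.29 in the adenocarcinomas and 7.70 to 7.99 in normal mucosa for adipocytes, 6.62 to 6.81 in the adenocarcinomas and 6.82 to 6.97 in normal mucosa for male germ cells, and 7.57 to 9.03 in the adenocarcinomas and 7.80 to 8.10 in normal mucosa for pancreatic acini. The parietal, chief and pit cell lists, given above, were lower in the adenocarcinomas as Cox7a1 was. The part of any of these lists in the Cox7a1 result was not tested.

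The other 7 isoforms were dim in both groups and moved little. Cox8c, the testis isoform of subunit VIII, was called lower by 0.30 (limma adjusted p = 0.04), but the Cox8c change was no longer called without adenocarcinoma 1, 2 or 3 or without normal sample 1, 3 or 4 (limma adjusted p = 0.0589 to 0.106). Cox6a2 (-0.25), Cox8b (-0.18), Cox7b2 (-0.03), Cox4i2 (0.03), Ndufa4l2 (0.23) and Cox6b2 (0.33) were not called. Each was set against its ubiquitous counterpart within the same array, as the log2 difference of the isoform minus the counterpart, and the shift of that difference between the groups was tested over all 70 assignments of the arrays. The smallest 2-sided p this exact permutation test can give is 0.0286, and 8 pairs were tested. For Cox7a1 minus Cox7a2 the difference was -3.98 ± 0.25 in the adenocarcinomas and -0.45 ± 0.17 in normal mucosa (SD, n = 4 each), a shift of -3.53 (exact permutation p = 0.0286, 0.0457 adjusted over the pairs). In 4 other pairs the counterpart was called lower, the isoform was not called, and the shift was positive: 1.08 for Ndufa4l2 minus Ndufa4, 0.85 for Cox6a2 minus Cox6a1, 0.75 for Cox4i2 minus Cox4i1 and 0.73 for Cox6b2 minus Cox6b1. Each of these 4 had the same exact permutation p of 0.0286 (0.0457 adjusted) and no overlap between groups. The counterparts changed by -0.85 (Ndufa4), -1.10 (Cox6a1), -0.73 (Cox4i1) and -0.40 (Cox6b1). These 4 shifts therefore restate in large part falls already called by limma, and are not separate evidence on the dim isoforms. Cox7b2 lay at or below the median of the background probes on all 8 arrays, so its pair follows Cox7b alone. Cox7b2 minus Cox7b shifted by 0.53 (exact permutation p = 0.0571, adjusted 0.0762), Cox8b minus Cox8a by 0.13 (exact permutation p = 0.6) and Cox8c minus Cox8a by 0.00 (exact permutation p = 1). These 7 dim isoforms lay at 5.7 to 8.8 on all arrays, and the 95th percentile of the receptor genes was 7.1 to 7.3 in the adenocarcinomas and 7.3 to 7.6 in normal mucosa.

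**Figure D2:**
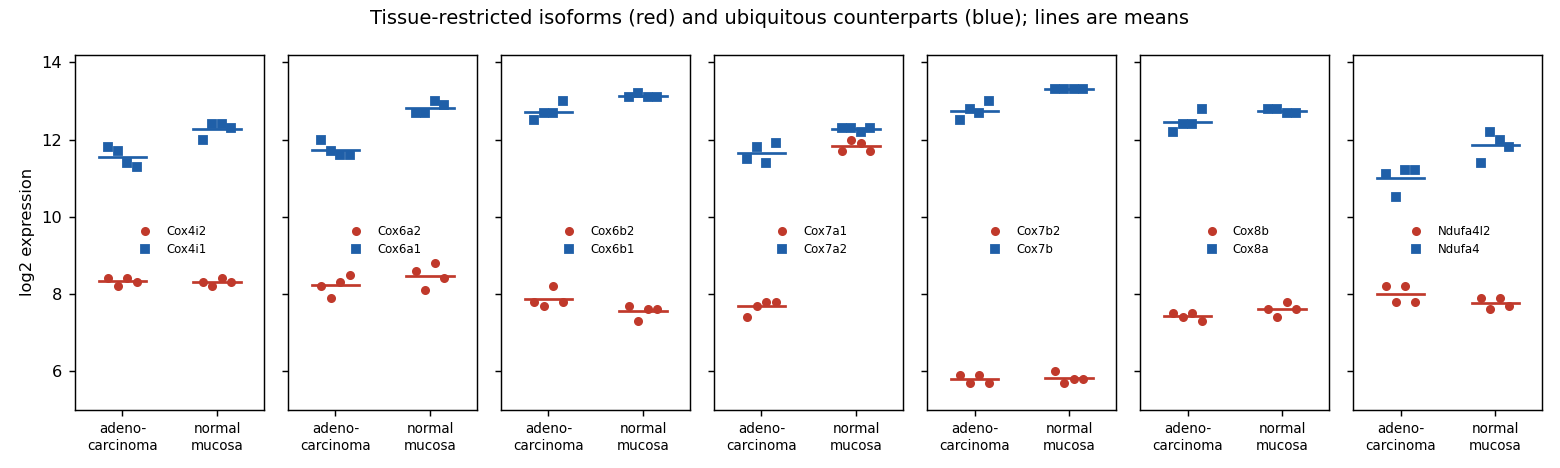
Log2 expression (y axis) of 7 isoform pairs in the 4 adenocarcinomas (left in each panel) and 4 normal samples (right), with the isoform in red, its ubiquitous counterpart in blue and lines at the group means. Cox7a1 lies at 7.4 to 7.8 in the adenocarcinomas and at 11.7 to 12 in normal mucosa, while the other 6 isoforms lie below 9 in both groups; heights of different genes are not on a common scale.

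Complex IV also depends on dedicated assembly factors. Cox17, the copper chaperone that supplies the enzyme's metal centres, was at 8.1, 8.0, 8.0 and 8.1 in the adenocarcinomas, against 9.2, 9.5, 9.0 and 9.2 in normal mucosa. The groups lay far apart, with a change of -1.18 ± 0.11 (limma adjusted p = 8.3e-05). Cox11, which also acts in copper delivery, was called lower by 0.68, Cox19 by 0.60 and Cox10, of the haem A pathway, by 0.48. Cox18, an inner membrane factor that helps insert the Cox2 protein, was the only respiratory gene called higher: it was at 10.4, 11.1, 11.1 and 11.2 in the adenocarcinomas and at 10.3, 10.4, 10.1 and 10.1 in normal mucosa. Adenocarcinoma 1 equalled the highest normal sample and the other 3 lay above all of them (0.73 ± 0.18, limma adjusted p = 0.0119). Cox15 (0.08), Cox16 (-0.05) and the supercomplex factor Cox7a2l (0.03) were not called. Cox4nb, the gene that shares only the name, was not called (0.25, limma adjusted p = 0.0954).

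Complex V makes ATP in a soluble F1 head that is joined to the membrane by a peripheral stalk and driven by a rotating ring of c subunits. Of its 15 subunits found by the name rule, 11 were called lower and none higher. The median change was -0.45, and the groups did not overlap for 10. By position in the enzyme, the peripheral stalk had 4 of 4 called lower (median -0.70), the small membrane subunits 3 of 3 (median -0.75), the F1 head and central stalk 2 of 5 (median -0.23) and the c ring 2 of 3 (median -0.43). The differences between these groups were not tested.

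Atp5o, which holds the peripheral stalk to the head, was at 11.3, 11.4, 11.4 and 11.4 in the adenocarcinomas, against 12.1, 12.2, 12.1 and 12.1 in normal mucosa. The replicates were tight and the groups well apart (-0.75 ± 0.08, limma adjusted p = 0.000115). The small membrane subunit Atp5l was at 11.1, 10.9, 10.8 and 10.9 in the adenocarcinomas, against 11.5, 12.1, 12 and 11.8 in normal mucosa (-0.93 ± 0.14, limma adjusted p = 0.00104). Atp5f1 (now Atp5pb), another part of the peripheral stalk, changed by -0.78 ± 0.12 and the small membrane subunit Atp5k by -0.75 ± 0.11, both without overlap. Atp5b, the catalytic beta subunit, was at 13.4, 13.5, 13.5 and 13.7 in the adenocarcinomas, against 13.7 in all 4 normal samples (-0.18 ± 0.09, limma adjusted p = 0.127). The F1 subunits Atp5d (-0.25, limma adjusted p = 0.107) and Atp5e (-0.15, 0.239) were not called either. The c ring gene Atp5g2 was at 11.8, 12, 12.5 and 12.6 in the adenocarcinomas, against 12.4, 12.3, 12.2 and 12.2 in normal mucosa, below normal in adenocarcinomas 1 and 2 and above in 3 and 4 (-0.05 ± 0.18, limma adjusted p = 0.833). Its paralogues Atp5g1 and Atp5g3, which encode the same mature protein, were called lower by 0.70 and 0.43. Atp5s (now Dmac2l) was not called (-0.10).

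The fall was present in each of the 4 adenocarcinomas but differed in depth among them. Relative to the normal mean, the median of the 74 subunits was -0.73, -0.53, -0.63 and -0.43 in adenocarcinomas 1 to 4, while it was between -0.05 and 0.09 in the normal samples. Subunits below their normal mean numbered 73, 72, 71 and 68 of 74 in these tumours. Adenocarcinoma 1 was lowest, alone or tied, for 40 subunits and adenocarcinoma 3 for 30, while adenocarcinoma 4 was highest for 47. Complex II kept another order: its median was -0.71, -0.24, -0.80 and -0.66, so that adenocarcinoma 2 was nearest to normal. Complex V was nearest to normal in adenocarcinoma 4 (-0.23) and lowest in adenocarcinoma 1 (-0.55). The median SD of the subunits was 0.22 in the adenocarcinomas and 0.10 in normal mucosa, and it was larger in the adenocarcinomas for 58 of 74. Over all genes the median SD was 0.19 in the adenocarcinomas and 0.13 in normal mucosa, and it was larger in the adenocarcinomas for 14615 of 21626.

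**Figure D3:**
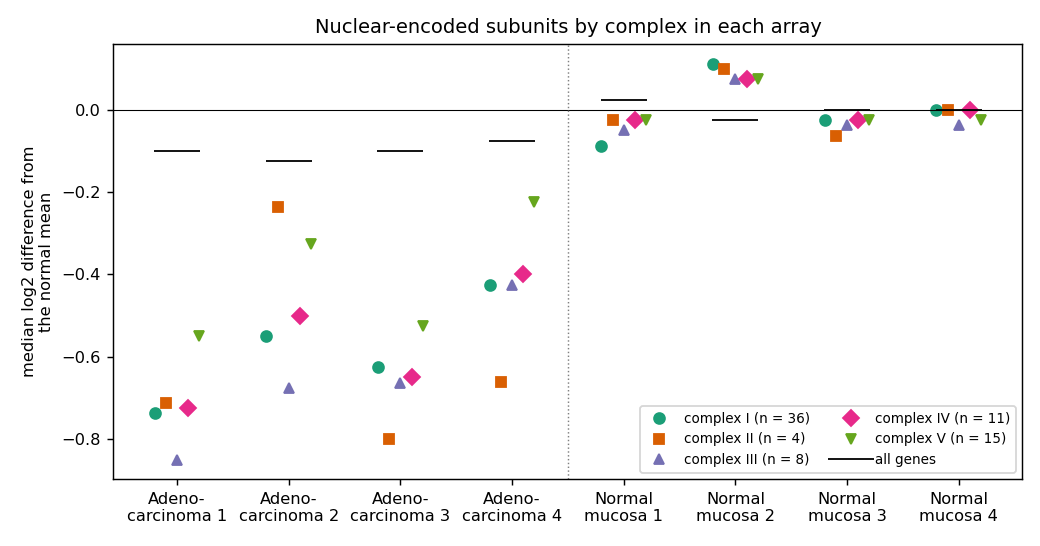
The y axis gives, for each array on the x axis, the median log2 difference of the subunits of each complex (coloured markers) and of all genes (black bars) from the normal mean. All 5 complexes lie below the all-gene median in each of the 4 adenocarcinomas (left), with complex II highest in adenocarcinoma 2 at -0.24 and complex V highest in adenocarcinoma 4 at -0.23.

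Other genes of mitochondrial energy supply were read from lists that the selection rule did not use. Of 10 mitochondrially encoded subunits, 6 were called lower and none higher, with a median change of -0.26, and ND3 of complex I changed by -0.63 and COX2 of complex IV by -0.33. Both probe sets are marked as cross-hybridising, and that of COX2 is placed on chromosome 1 and not on the mitochondrial genome. Electron carriers and ATPase partners were called lower in 8 of 10 (median -0.48), led by Etfa (-1) and Etfdh (-0.95), which pass electrons from fatty acid oxidation to coenzyme Q. Among the 8, the testis cytochrome c gene Cyct lay at or below the median of the background probes on all 8 arrays. The 8 also include subunits of the complexes themselves that the name rule leaves out: Cyc1 of complex III and Usmg5 of complex V. Coenzyme Q synthesis had 7 of 13 called lower and 1 higher (median -0.45), with Adck3 at -1.35 and Coq3 at -0.63. Citric acid cycle enzymes were called lower in 8 of 14 and higher in none (median -0.51), led by Ogdh (-1.05). At an unadjusted limma p under 0.05, 0 genes of the mitochondrially encoded, electron carrier and citric acid cycle lists were higher. Each of these medians can be read against the median of -0.10 over all genes. The counts can be read against the 23.6% of all genes called lower and the 18.2% called higher.

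Lists of genes that build or maintain mitochondria held calls in both directions, at shares to be read against the 23.6% lower and 18.2% higher of all genes. Of 75 mitochondrial ribosomal proteins, 11 were called lower and 8 higher, with a median change of -0.03, led by Mrps21 (-0.85) and Mrpl45 (0.85). Assembly factors outside the name rule had 2 of 20 called lower and 2 higher (median -0.16), among them Sdhaf1, which matures complex II, at 1.03 and the copper factor Sco1 at -0.68. Mitochondrial DNA maintenance and transcription had 2 of 12 called lower and 1 higher (median 0.03), with the single-strand binding protein Ssbp1 at 0.78 and the polymerase subunit Polg2 at -0.33. Import, porin and cristae genes had 7 of 20 called lower and 2 higher (median -0.09), with the fusion protein Mfn2 at -0.73 and the import receptor Tomm20 at 0.70. A citric acid cycle enzyme is among these 7 and is counted in the citric acid cycle list as well. None of the ribosomal protein, assembly or DNA maintenance counts exceeded the share of all genes in either direction. The difference between these lists and the respiratory subunits was not tested.

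**Figure D4:**
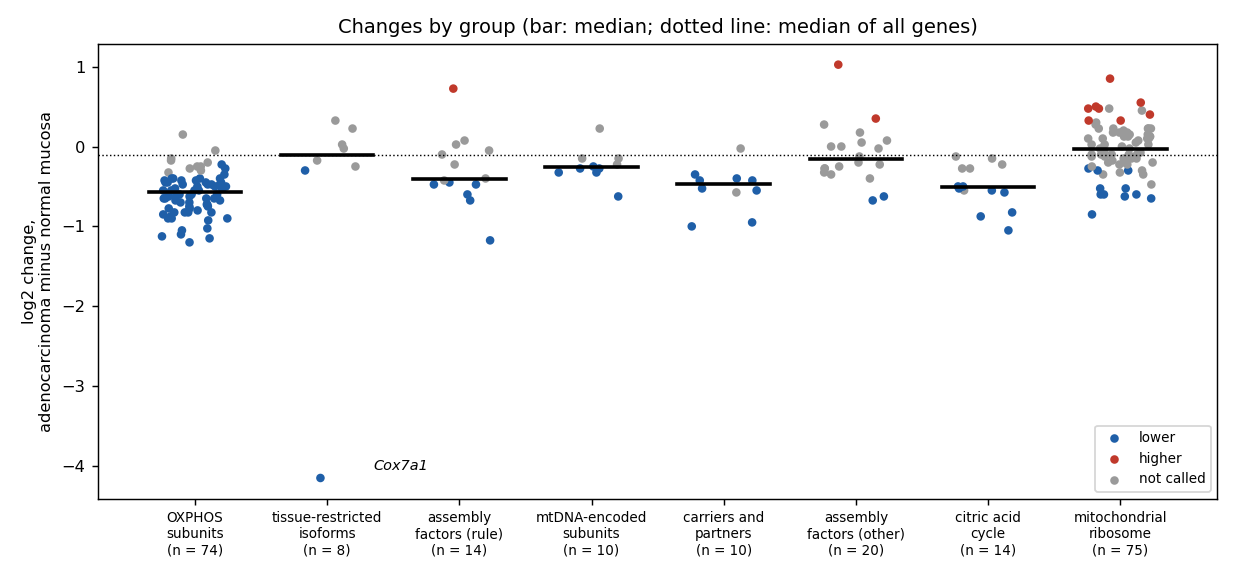
Each point is 1 gene, with its log2 change (adenocarcinoma minus normal mucosa) on the y axis and its group on the x axis; blue was called lower, red higher and grey not called, bars are group medians and the dotted line is the median of all genes (-0.10). The subunits centre on -0.58 and the citric acid cycle on -0.51, the mitochondrial ribosomal proteins on -0.03, and Cox7a1 lies alone at -4.15.

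Nuclear regulators of these genes did not move as a block: of 12, 5 were called lower and 4 higher. Over all genes 23.6% were called lower and 18.2% higher, and with 12 genes the counts were not tested against these shares. Esrrg, an orphan nuclear receptor that drives oxidative genes in heart and stomach, was at 7.1, 7.3, 7.3 and 7.4 in the adenocarcinomas, against 11.9, 12, 11.9 and 11.7 in normal mucosa. The groups were over 4 log2 units apart (-4.60 ± 0.10, limma adjusted p = 4.34e-08). The adenocarcinoma values lay at about the 95th percentile of the receptor genes on the same arrays (7.1 to 7.3). Its relatives Esrrb (-1.28) and Esrra (-0.50), the coactivator Ppargc1b (-1.43) and the lipid-sensing receptor Ppara (-1) were also called lower. Ppargc1a, the coactivator best known for mitochondrial biogenesis, was at 7.1, 7.8, 10.8 and 9.9 in the adenocarcinomas and at 9.8, 10.3, 9.7 and 9.7 in normal mucosa. Adenocarcinomas 1 and 2 were far below normal and 3 and 4 were not, and the change of -0.98 was not called (limma adjusted p = 0.288). Nrf1 (0.30), Yy1 (0.48), Pprc1 (0.48) and Gabpb1 (0.95) were called higher, and Gabpa was not called (-0.03, limma adjusted p = 0.876).

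Known binding motifs of these regulators were counted in the RefSeq promoters on GRCm38.p6, on both strands of the 300-base window. Of the 97 genes, 79 matched the promoter table, with 86 promoters. The ETS motif of GABP, CCGGAAG, was in 21 of the 86 promoters (24.4%), against 8.86% of all promoters. The YY1 motif AAGATGGC was in 13 (15.1%), against 2.75%, and the NRF1 core GCATGCGC in 11 (12.8%), against 2.71%. The estrogen-related receptor element TCAAGGTCA was in 2 (2.33%, confidence interval 0.283% to 8.15%), against 0.423%. That interval includes the share of all promoters, so no excess can be read from these 2 matches. The subunit genes have CG-rich promoters, with a median of 19.5 CG dinucleotides against 7 over all promoters. A match is a description and not a binding site, and no binding was measured here.

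The promoters with the estrogen-related receptor element are those of Atp5g3, at chr2:73911277-73911576, and Sdhd, at chr9:50603800-50604099, both on the minus strand. They are shown because Esrrg was the regulator with the largest change. The capitals mark the element, which both carry on the opposite strand and which therefore reads as TGACCTTGA.
Atp5g3: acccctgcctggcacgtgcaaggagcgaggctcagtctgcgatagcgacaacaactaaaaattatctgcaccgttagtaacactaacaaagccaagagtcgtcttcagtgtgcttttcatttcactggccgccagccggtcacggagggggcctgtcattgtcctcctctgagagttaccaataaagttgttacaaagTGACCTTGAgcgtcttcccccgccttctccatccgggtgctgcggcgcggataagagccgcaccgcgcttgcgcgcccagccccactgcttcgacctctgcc
Sdhd: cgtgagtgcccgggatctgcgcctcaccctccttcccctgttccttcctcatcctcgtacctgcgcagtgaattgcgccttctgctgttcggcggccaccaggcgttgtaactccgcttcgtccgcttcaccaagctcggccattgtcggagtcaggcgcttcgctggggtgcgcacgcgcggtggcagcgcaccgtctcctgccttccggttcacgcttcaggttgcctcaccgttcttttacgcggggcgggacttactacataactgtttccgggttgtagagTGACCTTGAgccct
The element began 52 bases before the start in Atp5g3 and 37 bases after it in Sdhd. Both genes were called lower by less than the median subunit, Atp5g3 by 0.43 and Sdhd by 0.48. The Cox7a1 window, shown above, did not hold this string of letters, which says nothing of binding elsewhere.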

How the data were processed

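The authors deposited log2 expression values of 8 arrays made with RMA, per the submitters' processing notes; no source read here gives its version, and the scanner files were not used. All 284448 deposited log2 values carry at most 1 decimal, so differences under 0.1 are not resolved. From 35556 probe sets, 24975 gene probe sets with 1 symbol gave 21626 genes, each taken at its brightest probe set; 17 of the 97 respiratory genes rest on probe sets marked as cross-hybridising, and paralogues may share signal there. Of 21 with several probe sets, all had changes of 1 sign and 18 agreed within 0.2. Groups came from the labels. limma 3.58.1 (R 4.3.3) was fitted on all genes with 4 arrays per group, with Benjamini-Hochberg adjustment over all genes, and was tested on simulated data. Isoform pairs were compared by exact permutation. The number of arrays limits the precision. Genes named are, per complex, up to 4 called genes of largest fall and of largest rise, all of complex II, all isoform pairs, X-linked genes, those not called in groups of 5 or fewer, and the 2 largest called changes per list with 5 fixed regulators; Atp5g1, Atp5g3, Atp5sl, Cox10, Cox11, Cox19, Ndufab1, Ndufaf3, Ndufb11, Uqcrc1, Uqcrc2 and the remaining regulators were added after their values were seen. For the citric acid cycle list only 1 gene is named, and another is not reported here. The genes and lists were chosen with earlier results of these data known. The mitochondrially encoded, mitochondrial ribosomal protein, citric acid cycle and sex-linked lists were chosen only after the data were seen. Alternatives are other centrings (array median, cyclic loess, receptor genes), 32 units added, a filter of the dimmest 30%, mean or unique probe sets, trend and robust fits, array weights, a replicate block, no X or Y genes, a threshold of 0.01, and each array left out.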

Additional observations from a re-analysis of the deposited data

Results flagged for a closer look

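A sample stood apart from the other 3 of its group, by its gap relative to the range of the group, in 14 of 102 groups examined over 51 named genes; chance gives about 1 in 20. In 11 of the 14 the whole range was 0.2 or less, so the gap is 1 or 2 rounding steps of the deposited values. The wider ones were Cox18 in the adenocarcinomas, where adenocarcinoma 1 was at 10.4 and the nearest other at 11.1, Ndufa4 in the adenocarcinomas, where adenocarcinoma 2 was at 10.5 and the nearest other at 11.1, and Cox4nb in normal mucosa, where sample 2 was at 9.3 and the nearest other at 9.0. Among the narrow ones, the adenocarcinoma values were 11.3 for Atp5o and 12.4 for Uqcrb. The narrow normal mucosa values were 13.6 for Atp5d, 10.8 for Atp5e, 12.4 for Atp5f1, 12.2 for Atp5o, 13.2 for Cox6b1, 12.2 for Cox7a2, 12 for Sdhb, 11.5 for Uqcr10 and 13.1 for Uqcrb.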

How the results depend on the processing

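No direction of a called result reversed under the alternatives run. The 72 respiratory genes called lower became 40 under receptor gene centring and 42 at an adjusted p under 0.01, and 58 to 72 when 1 array was left out. The 64 subunits became 37 and 38 under those first 2 settings and 52 to 62 without 1 array. The gene called higher became 2 under cyclic loess (Cox18, Cox6b2), 2 with array weights and 2 without normal sample 2 (Cox18, Cox4nb), 4 under receptor gene centring (Cox18, Cox4nb, Cox6b2, Ndufa4l2) and 0 at an adjusted p under 0.01; without 1 array it was 1 to 2. Of 87 genes in 6 lists (other assembly factors, electron carriers, coenzyme Q synthesis, DNA maintenance, regulators and import), 31 were called lower, which became 13 under receptor gene centring and 16 at the stricter threshold, and 21 to 33 without 1 array. In these lists 10 were called higher, which became 6 under median centring and 4 at the stricter threshold, and 5 to 11 without 1 array, with 6 without adenocarcinoma 2, normal sample 1 or normal sample 4, and 5 without normal sample 3. Centring moved the median of all genes from -0.10 to -0.24 (array median), -0.01 (cyclic loess) and 0.05 (receptor genes); the subunit median was then -0.71, -0.57 and -0.43. Genes called lower over all genes were 42.9%, 15% and 7.86% under these centrings. The isoform pair Cox7b2 minus Cox7b passed the threshold under cyclic loess (0.67, adjusted exact permutation p = 0.0381) and with 32 units added (0.53, 0.0381). Cox7b2 is not above background, so this shift restates the change of Cox7b. Pair shifts without 1 array are values with no test. The labels do not say whether same-numbered samples pair. Their deviations from the group means correlated at -0.17, 0.09, 0.16 and 0.04, which cannot decide whether they share an animal or a batch. With the replicate block 66 respiratory genes were called lower. Causes were not tested, and the 1-decimal rounding limits small changes.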
